A study of Mus musculus with 2 samples.

Results

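The peaks described here are regions of N6-methyladenosine (m6A) enrichment whose summit lay in a short protein-coding gene of the mouse uterus. An autosomal peak was taken when its summit fell inside the span of exactly 1 annotated gene and that gene was protein-coding with a span under 3000 bases, counted from gene start to gene end with introns. The rule used position and gene span and no measured level. It gave 731 of the 38366 peaks in the authors' list (1.91%), and these lay in 525 genes. The list comes from methylated RNA immunoprecipitation sequencing, which sets RNA pieces caught by an anti-m6A antibody beside RNA sequenced without it. The m6A group was 1 library made from the whole uterus of C57BL/6 wild-type mice, labelled as an equal pool of uteri from days 4 and 8 of gestation, although the peak names mention day 8 only. The input group was 1 library of whole uterus of the same strain without antibody, and its label names neither a day nor pooling, so whether it matched the pool is not known. With 1 library per group no test between groups was possible, and every value describes this pair of libraries. The days cannot be told apart in the pool, and the list gives no expression level against which the tissue label could be checked.

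m6A is placed on mRNA in the nucleus by a complex built on Mettl3 and Mettl14 and is read by proteins that act on splicing, translation and decay of the transcript. In mammals it is known to gather near stop codons and in long exons, while exon junction complexes keep the neighbourhood of splice junctions less methylated. Short genes include transcripts with no intron at all, such as those of replication-dependent histones, Jun and C/EBP factors, and transcripts of many tiny exons, such as those of ribosomal proteins. No exon positions were used here, so summits are placed within the gene span and not in exons, introns, UTRs or coding sequence.

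Of the 525 genes, 413 had a strand in the RefSeq promoter table, which allowed their 576 peaks to be placed from gene start to gene end. The same table holds the letters of the first 50 bases after the outer start of 364 of these genes. A member peak covered all of these bases in 80 genes. The letters GGAC followed by A, C or T, common forms of the m6A target motif, were looked for on each strand, and 10 of the 80 windows held them on the gene's own strand. These 10 sites are printed because they are the covered gene starts in which the motif could be read. Each is 30 bases, 5′ to 3′, on the gene strand, from RefSeq GRCm38.p6, the assembly of mm10, with every match to the motif in capitals.
Atp6v1f, chr6:29467798-29467827, plus strand: gctctgcccggcGGACAggatggcgggcag
Crip1, chr12:113152019-113152048, plus strand: cctgaaaagcgcGGACCaggcgggcgccac
Pole3, chr4:62524965-62524994, minus strand: ggcggagaggcccgaGGACCtaaatctgcc
Dusp1, chr17:26508443-26508472, minus strand: agtgaaGGACTggcgggaggaaagcgcggt
Txndc17, chr11:72207567-72207596, plus strand: cttgggggcgcaGGACCctagggctcctcc
Junb, chr8:84978699-84978728, minus strand: gccgagcactggGGACTttgagggtggcca
Gadd45g, chr13:51846692-51846721, plus strand: tgggcgcgcatcGGACTctgggaatcttta
Gm40378, chr6:73289793-73289822, minus strand: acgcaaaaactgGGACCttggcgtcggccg
Nkg7, chr7:43437140-43437169, plus strand: agatcagacagaGGACTcctGGACAaagcc
Arl6ip4, chr5:124116128-124116157, plus strand: gtgggctaatggtggatgtggGGACCcagc
The peaks over these starts ran from 3.90-fold in Arl6ip4 to 23.7-fold in Atp6v1f, which encodes a subunit of the vacuolar proton pump. The motif was not more frequent in covered starts than in other gene starts. It stood in 12.5% of the 80 covered starts (exact Clopper-Pearson 95% interval 6.16 to 21.8), against 17.3% of 284 short genes whose peaks lay elsewhere, 16.2% of 1989 short genes without a member peak and 15.9% of all 9841 autosomal protein-coding windows. Read on the opposite strand, the same letters stood in 12.5% of the covered starts and 14.3% of all windows. The letters AAACT were found in 3 of the 80 covered starts (3.75%), against 3.51% of all windows. The peak at the gene start was 8.33-fold at the median in the 10 genes with a GGAC motif and 8.55-fold in the 70 without. A motif match describes letters and is not a mapped site, and the search covered 50 bases, far fewer than most peaks.

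Fold enrichment, the authors' value for how far the immunoprecipitated (IP) fragments at a summit exceed the local background, had a median of 6.80 over the 731 peaks, with quartiles of 4.47 and 9.45. It ranged from 1.73 in the histone gene H2bc18 to 32.0 in Foxl2. Behind the median peak stood 46 IP fragments, with quartiles of 25 and 76, over a local background of 5.06 scaled fragments, and 39 peaks rested on fewer than 10 fragments. For 31 peaks the background was 0.462, the most frequent low value in the list, taken here as the genome-wide background. A lower value of 0.285 was recovered in genes of at least 100 kb, so this reading is not certain. The interval given after a fold is an exact 95% Poisson interval that takes the background as known. All intervals cover only the error of counting, since copies made by PCR are not independent molecules, and they leave out variation between animals. Fold did not follow gene span across the peaks (Spearman's rho -0.0026, n = 731), while it was lower where the background was higher (rho -0.52). Since background enters the fold as its divisor, the second value is partly built in, and both are descriptions across peaks of 1 list. The list also holds only called peaks, so a low fold can stand in it only over a higher background. Prm1, with the fewest IP fragments of a member peak, 5, was at 4.1-fold over 0.462, and H2bc18 at 1.73-fold over 49.4.

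**Figure D1:**
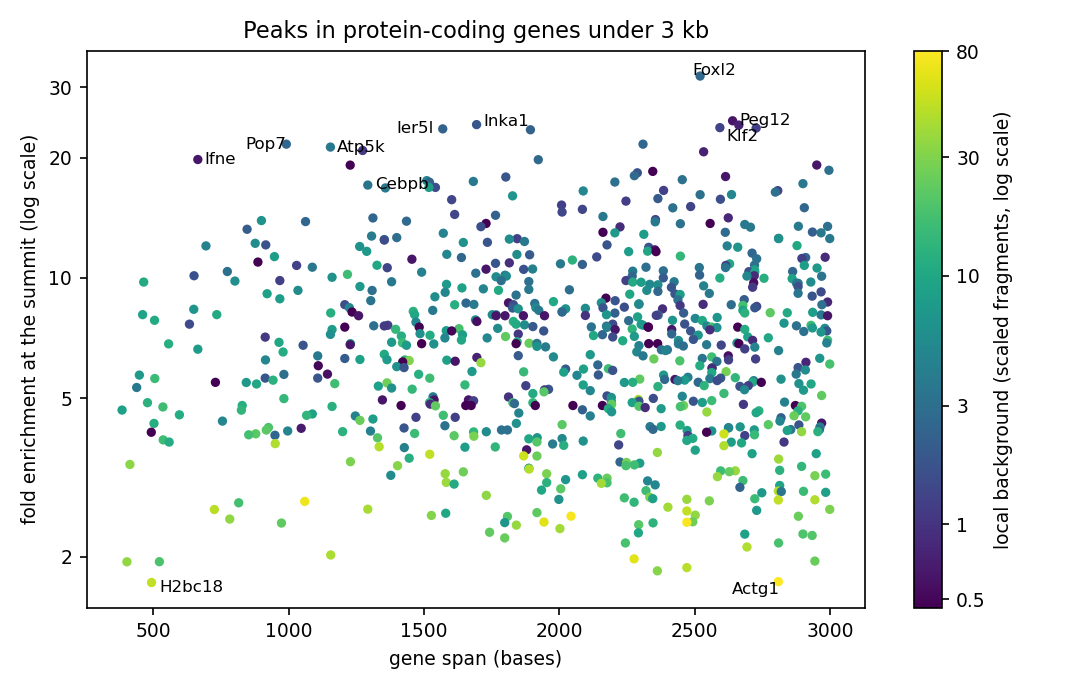
Each point is 1 of the 731 peaks, placed by the span of its gene in bases and its fold enrichment on a log scale, and coloured by local background in scaled fragments. Foxl2 stands highest at 32.0-fold, and the lowest folds, in H2bc18 and Actg1, are among the points of high background.

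Short genes carried a peak less often than longer ones. A member peak was found in 525 of 2981 autosomal protein-coding genes under 3 kb, or 17.6% (exact Clopper-Pearson 95% interval 16.3 to 19.0). Over protein-coding genes of any span the same rule gave 52.5%, 10790 of 20558. The share was 4.52% of 1371 genes under 1 kb, 21.1% of 892 genes of 1 to 2 kb and 38.3% of 718 genes of 2 to 3 kb. In longer genes it was 44.6% of 4295 genes of 3 to 10 kb, 60.5% of 10970 genes of 10 to 100 kb and 74.2% of 2312 genes of at least 100 kb. A shorter span offers fewer bases for a summit, and the part of length in this order was not tested. Much of the short set is also made of receptor genes of smell and pheromone sensing: 1184 of the 2981 genes are olfactory or vomeronasal receptors, and only Olfr90 of these had a peak, at 4.20-fold from 6 IP fragments. Without them 524 of 1797 short genes had a peak, or 29.2% (27.1 to 31.3). Another 106 short genes held summits that fell in a second gene as well and were not counted, and 2350 held none. Lack of methylation, lack of expression and thin coverage cannot be told apart in a gene that has none, nor can fewer cells of a type and less RNA per cell in whole tissue.

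When a short gene carried a peak, that peak was as deep as those of longer genes or deeper. The median summit had 46 IP fragments in genes under 3 kb, against 37 in genes of 3 to 10 kb, 34 in genes of 10 to 100 kb and 26 in genes of at least 100 kb. Median local background was 5.06 in the short genes, against 4.93, 4.32 and 3.09 in those classes of rising span. The median fold over all peaks was 6.80, against 5.95, 6.12 and 6.12. The order differed when only the highest peak of each gene was taken. That median was 7.61 in the short genes, which was above the value of genes of 3 to 10 kb. It was below the 7.93 of genes of 10 to 100 kb and the 9.15 of genes of at least 100 kb. At least 10-fold enrichment was reached by 157 of the 731 peaks (21.5%), where 14.7% of all 29415 peaks in 1 autosomal protein-coding gene did so. Within the short genes the 63 peaks in genes under 1 kb had the lowest median fold, 5.54, and the highest median background, 9.26. Peaks in genes of 1 to 2 kb and of 2 to 3 kb had medians of 6.91-fold and 6.76-fold, each over a background of 4.94. These are medians within 1 pair of libraries, the interquartile ranges of all classes overlapped, and no test was made.

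**Figure D2:**
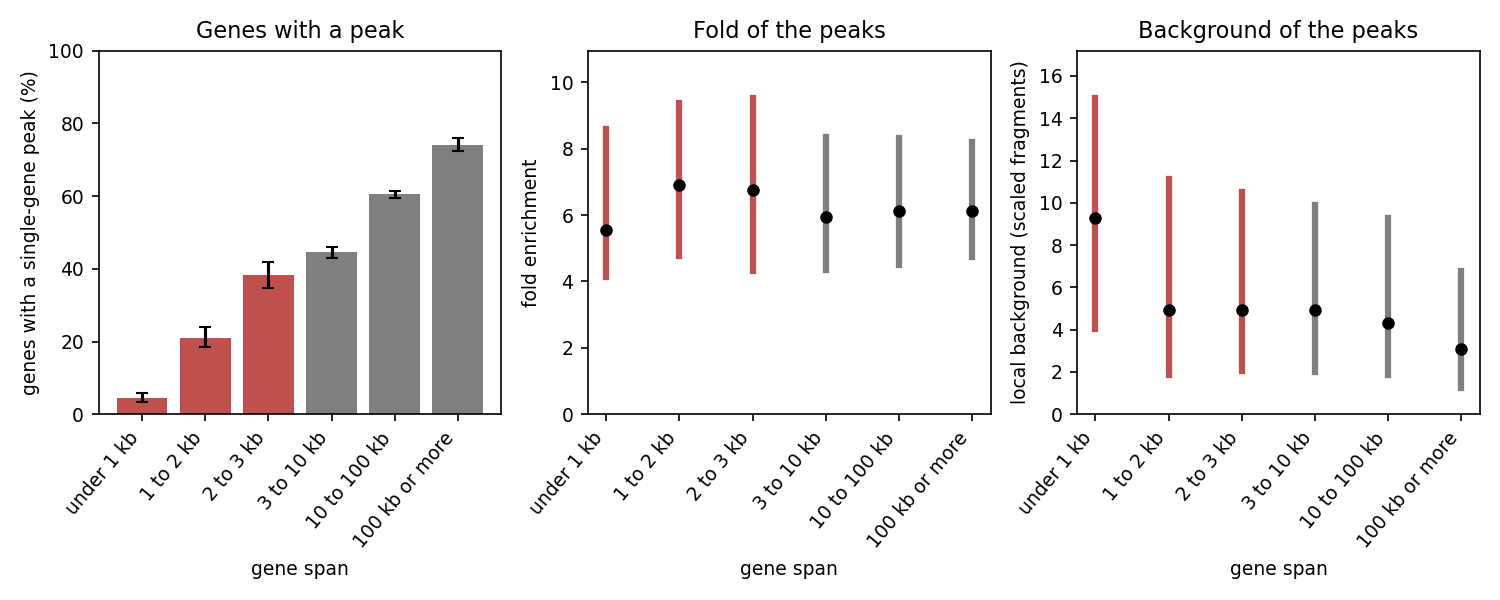
From left to right, the panels give the percentage of protein-coding autosomal genes with a peak (bars, with exact Clopper-Pearson 95% intervals), the fold enrichment and the local background of the peaks (black points are medians, lines run from the lower to the upper quartile) by gene span. Red marks genes under 3 kb and grey longer genes: the share with a peak runs from 4.52% under 1 kb to 74.2% at 100 kb or more, while median folds stay between 5.54 and 6.91.

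The highest enrichment was found in Foxl2, which encodes a forkhead transcription factor of the ovary and the uterine stroma. Its 1 peak (chr9:98954463-98957908, mm10) had 114 IP fragments over a background of 2.59 and reached 32.0-fold (26.4 to 38.4). This peak was 3446 bases wide in a gene of 2520 bases, covered 91.4% of the span and ran 1144 bases before the gene start into a neighbouring gene. The interval of Foxl2 overlapped those of Peg12, an imprinted gene, at 24.7-fold (17.8 to 33.6) from 39 fragments, of Inka1, an inhibitor of the kinase Pak4, at 24.2-fold (18.9 to 30.6) and of Ankrd9 at 24.1-fold (17.5 to 32.5). Klf2, a Krüppel-like factor of endothelium, reached 23.8-fold (17.9 to 31.0) near the start of the gene. Its second peak was 9.99-fold (8.29 to 11.9). IP fragments numbered 120 over a background of 11.1 at this second peak, against 53 over 1.27 at the first.

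The next genes in order lay close together. Atp6v1f stood at 23.7-fold, Ier5l, an immediate early response gene, at 23.6-fold, and B3gnt8, a glycosyltransferase gene, at 23.5-fold. Zbtb12, a zinc finger gene, and Pop7, a subunit of the RNA-cutting enzymes RNase P and RNase MRP, both stood at 21.6-fold with 74 fragments over 2.47. Atp5k, the subunit e of mitochondrial ATP synthase, followed at 21.3-fold (17.3 to 25.8) and Alyref2, a copy of the mRNA export factor Alyref, at 20.8-fold (15.2 to 27.9). The counting intervals of the highest peaks of the genes from Klf2 to Alyref2 overlap, so these are not ordered beyond counting error. All of these intervals but that of Atp5k also overlap the interval of Foxl2. The shape of the peaks differed more than their fold. The peak of Ier5l covered the whole span of 1569 bases, and those of B3gnt8 and Pop7 covered 97.3% and 94.8%, while the peak of Atp6v1f was 258 bases wide and covered 6.60% of its gene, right at the start. The Zbtb12 peak ran 339 bases past the gene end.

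Peaks filled much of these genes. The median peak was 438 bases wide, against 374 in genes of 3 to 10 kb, and covered 22.9% of its gene. All member peaks of a gene covered 40.9% of the span at the median, with quartiles of 23.7% and 64.7%, and at least 50% of it in 208 of the 525 genes. A single peak was wider than its own gene in 21 cases. Strand was known for 17 of these, of which 12 ran out before the gene start only, 3 past the gene end only and 2 past both. They include the interferon gene Ifne (870 bases, gene span 664), Ier2 (1601 and 1522), Gadd45g (1856 and 1801), the tight junction gene Cldn3 (1386 and 1263) and the linker histone gene H1f2 (1364 and 725). The peak of H1f2 ran 704 bases past the annotated gene end, and that of H2ac19 ran 371. Of all 731 peaks, 127 (17.4%) reached outside their gene, against 6.84% in genes of 3 to 10 kb, and 44 intervals touched another annotated gene. In the list without strand, bases that reach into a neighbour cannot be assigned to either transcript. Among the 576 peaks with strand, 81 reached before the start, by 62 bases at the median, and 17 past the end, by 203 bases at the median.

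The 5 shortest genes with a peak spanned 384 to 448 bases. H4c14, H4c4 and H2ac13, which encode core histones, stood at 4.67-fold, 1.95-fold and 5.71-fold. Rpl34-ps1, annotated as protein-coding in RefSeq although its symbol is that of a pseudogene, stood at 3.41-fold with 114 IP fragments over a background of 32.7. Ang2, a ribonuclease of the angiogenin family, stood at 5.31-fold. Histone genes, Rpl34-ps1 and angiogenins have close copies in the genome, and how reads matching several copies were placed is not given in the sources used here, so their values are uncertain.

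Among genes with a peak, the 5 longest under the limit of 3000 bases, of 2991 to 2999 bases, were Gzmg, a granzyme, with 3 peaks of 2.63-fold to 12.5-fold, Gimap9 with 1 of 18.6-fold, Hgh1 with 1 of 13.5-fold, Islr with 1 of 6.98-fold and Tigd3 with 2 of 8.04-fold and 8.70-fold. The 5 shortest genes with a peak beyond the limit, of 3003 to 3015 bases, were Polr2k, a subunit of RNA polymerases, with 3 peaks of 4.43-fold to 12.6-fold, Gzme, another granzyme, with 2 of 3.23-fold and 5.36-fold, Slc25a1 with 1 of 6.87-fold, Pou3f1 with 1 of 10.5-fold and the matricellular gene Ccn1 with 1 of 7.56-fold.

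Summits were spread over the whole of the short genes, with more in the second part. With each span cut into 5 equal parts from gene start to gene end, part 1 held 103 of the 576 peaks with strand (17.9%), part 2 held 76 (13.2%), part 3 held 105 (18.2%), part 4 held 130 (22.6%) and part 5, at the gene end, held 162 (28.1%). In genes of 3 to 10 kb part 1 held 20.9% and part 5 held 35.3%, and in genes of 10 to 100 kb these shares were 17.9% and 44.3%. With the span cut into 10 parts, most summits of short genes lay in part 9 (18.2%), and part 10 held 9.90%, whereas part 10 held 22.6% in genes of 3 to 10 kb. In genes under 1 kb 45 of 55 summits lay in parts 3 and 4 of 5. Peaks in these genes were at least 200 bases wide and 515 at the median, which bounds where a summit can lie. The same bound acts on all short genes, so their contrasts with longer genes in the place of summits are partly built in. The median summit of all short genes stood 685 bases from the gene end, and 129 summits lay within 250 bases of the end, against 83 within 250 bases of the start.

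Median enrichment was higher at the start than at the end of short genes, and the same held in genes of 3 to 10 kb. In part 1 of 5 the median peak was 8.05-fold over a background of 2.59 with 32 IP fragments, and 31 of 103 peaks reached 10-fold. In part 5 it was 5.38-fold over 8.65 with 52 fragments, and 16 of 162 peaks reached 10-fold. Parts 2, 3 and 4 had medians of 6.84-fold, 6.97-fold and 6.90-fold over backgrounds of 3.71, 5.56 and 6.18. Median IP fragments were thus higher at the end as well, and the fold was lower there over a higher background. With the span cut into 10 parts, genes of 3 to 10 kb had 7.17-fold over 2.075 in part 1. In part 10 they had 5.12-fold over 7.53. The part of the background in the order of the folds was not tested.

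**Figure D3:**
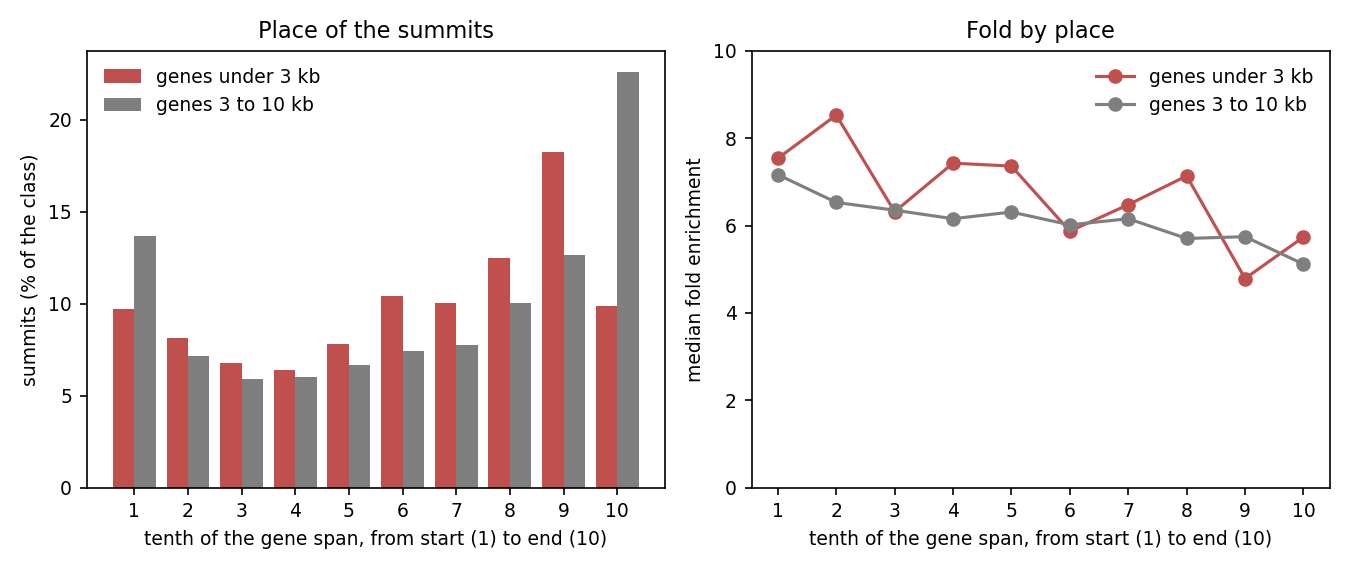
Left, the percentage of summits in each of 10 equal parts of the gene span from start to end for genes under 3 kb (red, 576 summits) and genes of 3 to 10 kb (grey, 2851 summits). Right, the median fold enrichment in the same parts. Short genes have most summits in part 9 (18.2%) and longer ones in part 10 (22.6%), a contrast partly built in by the width of peaks in short genes. The median fold in part 1 and part 10 is 7.54 and 5.74 in short genes, against 7.17 and 5.12 in the longer ones.

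Of the 525 genes, 344 carried 1 member peak, 159 carried 2 and 22 carried at least 3. At least 2 peaks were found in 34.5% of carriers, against 54.4% in genes of 3 to 10 kb, 66.2% in genes of 10 to 100 kb and 79.9% in genes of at least 100 kb. Per length, carriers held 0.705 peaks per kb of span, against 0.294, 0.0726 and 0.0177 in those classes, where the span counts introns. Each carrier holds at least 1 peak, so this value is higher in shorter genes by construction. Neighbouring summits of a gene stood 1019 bases apart at the median, from 316 to 2514. In 99 of the 181 genes with several peaks, the counting intervals of all folds overlapped. Where a gene had 2 peaks and a strand (124 genes), the peak nearer to the start was the higher in 74 and the peak nearer to the end in 50. The median fold was 7.50 in the peaks nearer to the start, against 5.37 in those nearer to the end, while IP fragments were 35 against 55 and background 3.19 against 9.88. The end peaks thus held more fragments and a lower fold.

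Rps25, which encodes a protein of the small ribosomal subunit, had peaks near both ends. Its start peak had 60 IP fragments over a background of 5.04 and was 10.1-fold (7.75 to 13.0). Its end peak had 94 over 43.9 and was 2.12-fold (1.72 to 2.59), so these intervals do not overlap. The DNA-binding inhibitor gene Id3 had 12.9-fold (10.1 to 16.3) at the start and 4.53-fold (3.60 to 5.63) further down, and Id2 had 8.61-fold and 4.77-fold. Twist1, a bHLH factor of mesenchyme, differed less: 13.0-fold (7.98 to 20.2) at the start, from 18 fragments at the genome-wide background, and 14.2-fold (11.1 to 18.1) further down. Mt1, a metallothionein, ran the other way, with 3.53-fold at the start and 6.21-fold near the end.

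The most peaks lay in Ctla2a, which encodes an inhibitor of cathepsin-type proteases. Its 5 peaks stood at 3.92-fold (2.86 to 5.24), 2.79-fold, 2.61-fold, 2.44-fold and 1.88-fold (1.51 to 2.31) from gene start to gene end, all low and over backgrounds of 10.2 to 76.0. Its close copy Ctla2b also carried a peak, at 3.18-fold, and reads of these copies may have been split. Gfer, a sulfhydryl oxidase of mitochondria, had 4 peaks of 7.31-fold to 13.0-fold. Ppp1r14b, a phosphatase inhibitor, had 3 peaks that fell along the gene, with 18.02-fold (14.0 to 22.9) first, then 7.13-fold and 3.40-fold (2.59 to 4.39). Mrpl54, a protein of the mitochondrial ribosome, had 3 of 8.16-fold to 17.4-fold, and Arl6ip4, an RNA-binding protein of nuclear speckles, 3 of 3.90-fold to 16.5-fold with the highest in the middle. Of the 18 genes with at least 3 peaks and a strand, 10 had the highest fold nearest to the start, 5 in between and 3 nearest to the end.

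**Figure D4:**
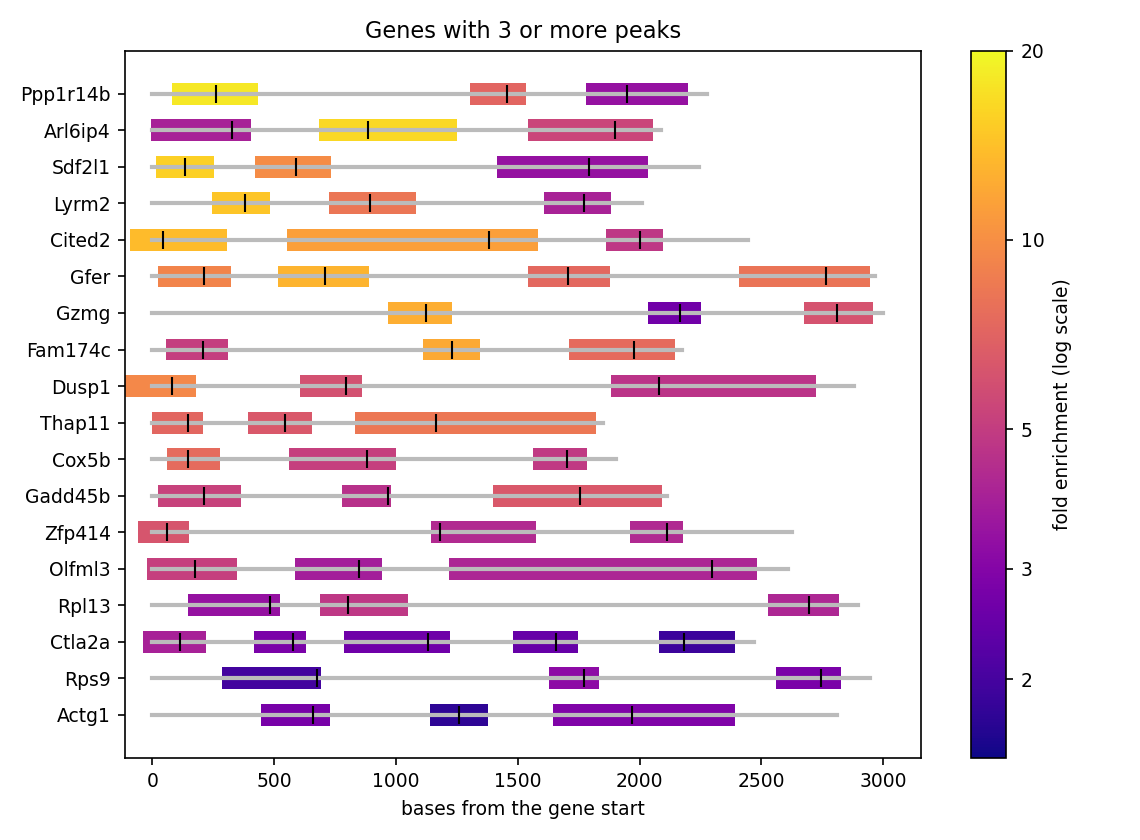
The 18 short genes with at least 3 peaks and a known strand are drawn to scale in bases from the gene start: grey lines are gene spans, coloured bars are peaks by fold enrichment on a log colour scale, and ticks are summits. In Ppp1r14b and Ctla2a the fold falls along the gene, with 18.02-fold first and 3.40-fold last, and with 3.92-fold first and 1.88-fold last, while Gfer stays between 7.31 and 13.0.

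The deepest peaks were not the most enriched. The most IP fragments, 224, lay in Olfml3, a secreted olfactomedin-like protein, whose background of 54.4 gave 4.07-fold (3.55 to 4.63). Pcbp1, an intronless RNA-binding protein gene, had 221 fragments and 6.13-fold (5.35 to 6.99), and its peak covered 83.1% of the gene. Arl4d, a small GTPase, had 203 and 4.96-fold. Dio3, an imprinted gene whose product inactivates thyroid hormone, had 195 and 3.58-fold (3.10 to 4.12) over 96.3% of its span. Rpl41 had 194 and 2.76-fold. Across the 731 peaks IP fragments were higher where the background was higher (Spearman's rho 0.82), as a description of 1 list. A called peak must exceed its background, so this value is partly built in. The highest background, 80.3, lay in Actg1, the gene of cytoplasmic gamma actin, where 140 fragments gave 1.74-fold (1.46 to 2.05).

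Gene groups among the short genes were defined by symbol in 20 lists that held 1766 of the 2981 genes, and 196 of these carried a member peak, with a median highest fold per gene of 7.53. Over all 525 carriers the median highest fold was 7.61, and 17.6% of all short genes carried a peak. That share was 29.2% without the olfactory and vomeronasal receptor genes. Counts below are read against both shares, and no test was made for any list. Lists with 3 of 7, 3 of 9, 3 of 10 or 3 of 14 genes carrying peaks had exact intervals that hold both shares. The lists follow symbols and may miss short genes of the same kind, so each count is of listed genes only. Intervals on a share are exact Clopper-Pearson 95% intervals. Without expression values, a high share of genes with peaks cannot be told apart from a high share of expressed genes. The short genes in no list carried peaks in 329 of 1215 (27.1%), at a median highest fold of 7.74.

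Immediate early and other fast response genes, many of which growth signals and stress induce without new protein, carried peaks in 20 of 23 (87.0%, 66.4 to 97.2). Their median highest fold was 8.85. After Klf2 and Ier5l the highest was Cebpb, a C/EBP factor needed for decidualization, at 16.8-fold (14.3 to 19.7) from 151 fragments over 8.03. Its peak (chr2:167688888-167690372) was 1485 bases wide in a gene of 1518. Cebpa followed at 16.2-fold (13.1 to 19.7), with a peak of 1746 bases in a gene of 2636. Jund and Junb, subunits of AP-1, had 1 broad peak each, at 12.04-fold (10.1 to 14.3) and 7.65-fold (6.15 to 9.42). These intervals do not overlap, but they leave out any error in the backgrounds of 9.88 and 10.5. By the highest peak of each gene, Ier3 was lowest at 4.12-fold. Peaks covered at least 50% of the span in 15 of the 20 carriers, and the median covered share was 63.5%, against 40.9% over all 525 genes. Dusp2, Cxcl1 and Egr4 had no summit.

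Developmental transcription factors of the homeobox, Sox, Fox and bHLH families carried peaks in 14 of 58 (24.1%, 13.9 to 37.2), a share between 17.6% and 29.2%, at a median highest fold of 8.25 over a median background of 1.91. Besides Foxl2 the highest were Hoxa7 at 19.2-fold (13.1 to 27.1), from 30 fragments near the gene end, and Foxq1, an epithelial forkhead factor, at 16.5-fold (11.8 to 22.5). Sox18, a factor of blood and lymph vessels, stood at 10.1-fold (7.82 to 12.9). By the highest peak of each gene, Neurog3, a neuroendocrine factor, was lowest at 4.79-fold from 6 fragments. Hes1, a Notch target at 6.97-fold, is counted in both of these groups. Cited2, a transcriptional co-regulator, had 3 peaks and is in neither list: 13.7-fold (10.4 to 17.7) at the gene start, 11.3-fold (9.68 to 13.2) in the middle and 4.76-fold (3.83 to 5.85) towards the end.

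Ribosomal protein genes carried peaks in 29 of 36 short members (80.6%, 64.0 to 91.8). Their highest folds were 10.1-fold in Rps25, 10.1-fold (7.40 to 13.5) in Rpl26 and 9.63-fold in Rpl12, and the median was 5.62 over a median background of 10.1. Peaks were small against the gene: the covered share was 29.2% at the median, and 18 of the 29 had at least 2 peaks. Rps12, Rps27a, Rpl10l and Rpl30 had no summit, and 3 others had summits shared with another gene only. Ribosomal protein genes have many processed copies, so counts may be split among them.

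Genes of the mitochondrial ribosome and of protein import carried peaks in 17 of 19 (89.5%, 66.9 to 98.7), all but Mrps16 and Tomm22. Mrpl54 at 17.4-fold, the inner membrane import gene Timm13 at 17.4-fold (13.2 to 22.4) and the outer membrane import gene Tomm5 at 15.0-fold led a group with a median of 6.87. Respiratory chain genes, assembly factors included, carried them in 14 of 20 (70.0%, 45.7 to 88.1), at a median of 8.46. Atp5k led, followed by the complex I subunit gene Ndufa2 at 11.6-fold (9.52 to 14.1) and the complex III subunit gene Uqcrq at 11.2-fold. Cox7c was lowest at 2.79-fold. Cox7a1, Cox6a2, Cox8b and Cox8c had no summit.

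Histone genes carried peaks in 24 of 72 (33.3%, 22.7 to 45.4), an interval that holds the 29.2% of short genes without the olfactory and vomeronasal receptors. Their median highest fold of 5.11 was below the 7.61 of all carriers. It was close to the 5.51 of all carriers under 1 kb, among which are many of these histone genes. The top of the list was held by genes outside the replication-dependent set, H2aj at 16.0-fold (13.4 to 19.1) and H1f10 at 13.8-fold (10.2 to 18.3). Among replication-dependent genes H2bc8 was highest at 9.76-fold (8.04 to 11.7), and H1f4, H2bc9, H4c4 and H2bc18 were at 2.49-fold, 1.95-fold, 1.95-fold and 1.73-fold. Peaks filled most of a histone gene, with a median covered share of 64.8% in carriers of 546 bases at the median.

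Chaperone and redox genes carried peaks in 8 of 15, at a median of 8.14. The heat shock genes Hspa1a and Hspa1b, near-identical intronless copies, stood at 16.4-fold (12.7 to 20.8) and 12.5-fold (10.1 to 15.4), and their reads may be split between them. The small heat shock gene Hspb1 followed at 12.3-fold. RNA processing and translation factors carried peaks in 8 of 11, led by Lsm7 of the U6 snRNP at 16.6-fold, the initiation factor gene Eif3j2 at 15.0-fold and the exosome subunit gene Exosc6 at 10.8-fold. Eif1, Eif4a3l1 and Eif4ebp3 had none. Proteasome and ubiquitin genes carried them in 3 of 7, Psmb6 at 5.37-fold, Psmb4 at 3.88-fold and Ubb at 2.53-fold with 189 fragments over 74.1.

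S100 and metallothionein genes, counted with Crip1 and the actin-binding thymosin gene Tmsb10, carried peaks in 9 of 12. Mt3, a metallothionein, led at 16.8-fold (12.2 to 22.7) from a start peak of 41 fragments, while its second peak had 113 fragments and 4.78-fold. Crip1, a LIM protein, was at 10.5-fold and the neutrophil gene S100a8 at 6.89-fold. S100a4 had peaks of 2.74-fold and 1.98-fold, and S100a14, S100a2 and S100z had no summit. Junction and membrane protein genes carried peaks in 19 of 44, led by Tmem42 at 15.1-fold, Tmem139 at 14.1-fold and Gja4, the connexin of arterial endothelium, at 12.02-fold (9.28 to 15.3). The endothelial claudin gene Cldn5 stood at 7.15-fold, and the epithelial claudin genes Cldn3, Cldn4 and Cldn8 at 9.51-fold, 8.66-fold and 8.05-fold. The other listed short claudin genes, Cldn9, Cldn13, Cldn17, Cldn20, Cldn22, Cldn23 and Cldn24, had no summit.

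Immune signal genes carried peaks in 7 of 44 chemokines, interleukins and interferons (15.9%, 6.64 to 30.1). Ifne, an interferon made by the epithelium of the female reproductive tract, was highest at 19.8-fold (13.6 to 27.8), from 31 fragments over 0.618. The lymphotoxin gene Ltb and the interleukin gene Il23a were both at 8.04-fold from 12 fragments, so their intervals of 4.45 to 13.6 are wide. The median background of the group was 0.618. Of 7 antigen presentation and complement genes only C1qa, at 9.76-fold (7.53 to 12.4), and H2-Ke6, at 3.12-fold, had a peak. C1qa encodes a chain of complement C1q, whereas H2-Ke6 encodes a steroid dehydrogenase and owes its symbol to its place in the histocompatibility region.

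Of 10 listed secreted signals, 3 carried peaks. Nog, the BMP antagonist noggin, stood at 19.8-fold (15.5 to 24.9) over 94.3% of its gene. The peaks of the natriuretic peptide gene Nppa and the heparin-binding factor gene Mdk reached 12.4-fold and 3.96-fold. Protease inhibitor genes of the Wfdc and cystatin families, counted with Slpi and the galectin gene Lgals7, carried them in 3 of 9, Wfdc18 at 11.6-fold, the leukocyte protease inhibitor gene Slpi at 8.81-fold and the cystatin gene Cstb at 3.23-fold. Apolipoprotein and haemoglobin genes had them in 3 of 14, the apolipoprotein genes Apoa4 at 10.7-fold and Apoa1 at 9.05-fold and the haemoglobin gene Hba-a1 at 2.73-fold. Listed small GTPase genes had them in 3 of 10, Rasd1 at 10.9-fold, Rhob, also counted among the fast response genes, at 6.26-fold and Arl4d. Receptors with the coding part in 1 exon had them in 6 of 78 (7.69%, 2.88 to 16.0), among them Gpr27 at 10.4-fold and the chemokine receptor gene Ccr10 at 8.52-fold. Barrier and defence genes had them in 5 of 97 (5.15%, 1.70 to 11.6), led by the small proline-rich genes Sprr2d at 12.3-fold and Sprr2h at 9.43-fold and by Rnase1 at 8.04-fold. The Sprr2 genes are close copies in a cluster, so their reads may be split.

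**Figure D5:**
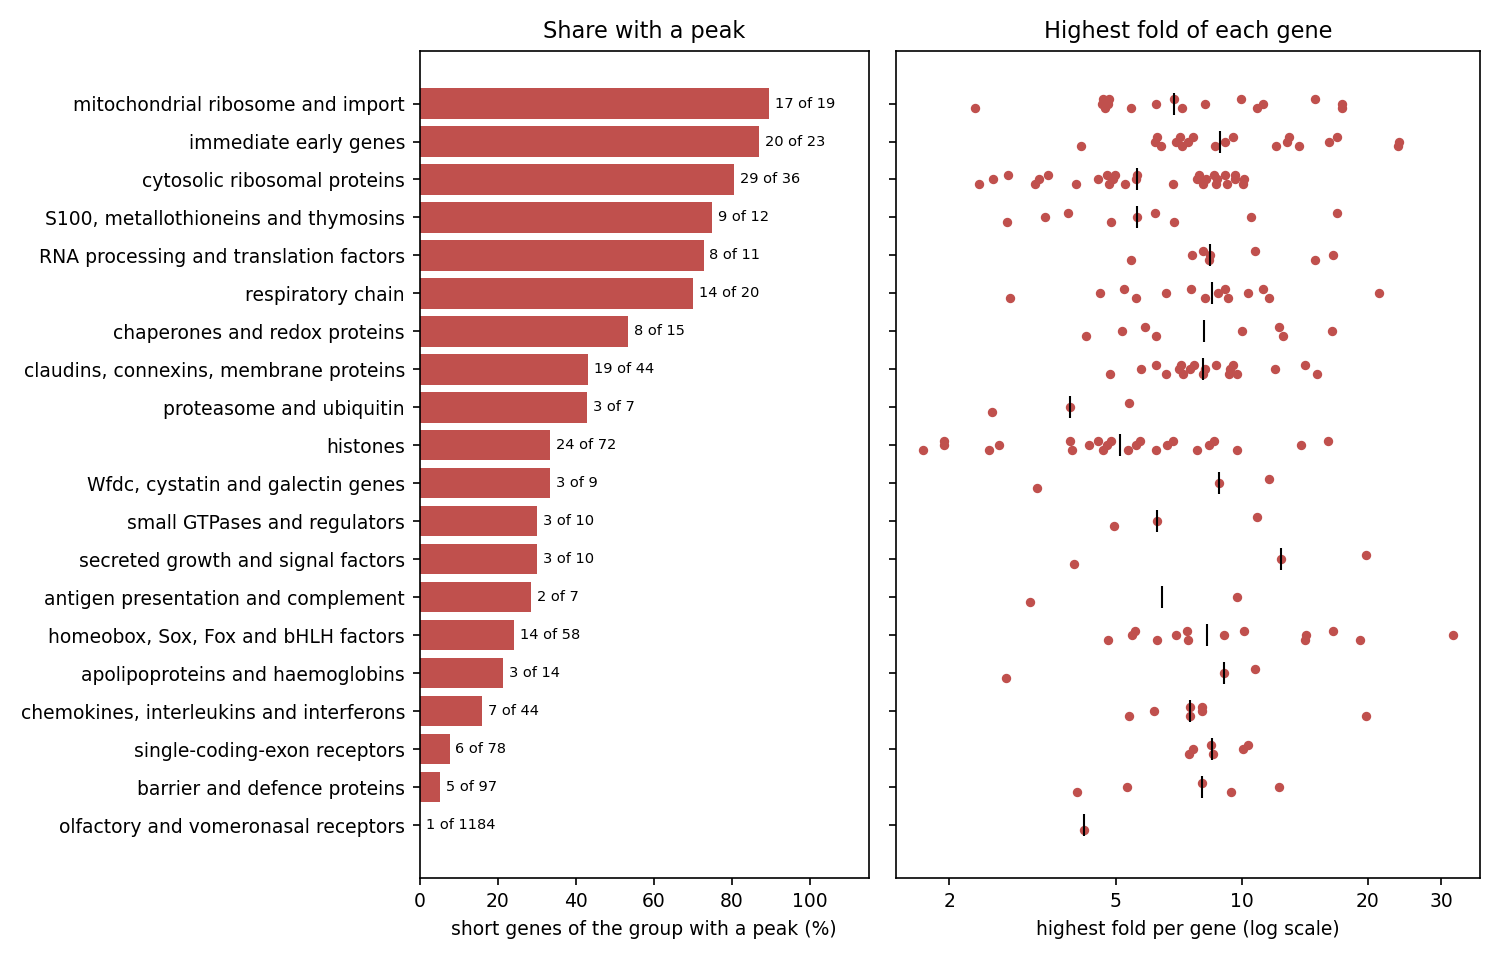
For each of the 20 gene groups, the left panel gives the percentage of its genes under 3 kb that carry a peak, with the counts, and the right panel the highest fold of each carrier on a log scale (red points), with the median as a black line. Shares run from 17 of 19 in mitochondrial ribosome and import genes to 1 of 1184 in olfactory and vomeronasal receptors, and ribosomal protein and histone genes have medians of 5.62 and 5.11.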

How the data were processed

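The peak list was deposited by the authors. HISAT2 2.2.1, MACS3 3.0.0a7 and mm10 are named per the submitters' processing notes; tool settings, filters and duplicate handling are, like library sizes, not given in the sources used here. Each deposited fold is the caller's ratio for the summit. A −log10 p-value and a −log10 q-value (lowest 1.32) were deposited beside it. The deposited display score was not used. IP fragments k and background were recovered from the fold, read as (k + 1)/(background + 1), and the Poisson p, which matched within 0.001 at 100% of peaks. This recovery and the linking of summits to genes were tested on simulated data.

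Gene spans (49632 genes, after leaving out 365 rows outside assembled chromosomes) came from RefSeq GRCm38.p6, and strand and start letters from its promoter table. Coordinates are counted from 1. The planned protein lengths were not run. Members and lists were chosen with earlier results of these data known, and the ribonuclease pattern of 1 list was narrowed after its members were seen. The genes named are the 12 of highest fold at −log10 q of at least 5, the 5 with most peaks, the 5 shortest, the 5 peaks with most fragments, the 5 genes on each side of the span limit and 3 per list, of which 1 is not reported here. Others (Ier2, Gadd45g, Cldn3, H1f2, H2ac19, Rps25 with Id2, Id3, Twist1 and Mt1 as pairs of peaks, Ctla2b, Cited2, Actg1, H2bc18, the lowest genes of lists and further list members) were chosen after their values were seen. Alternatives were a fold from 4 upward, a −log10 q from 5 upward, spans under 2000 or 4000 bases, other genes allowed at the summit, at least 50% of the peak in the span and 1 summit per interval. The scripts ran under Python 3.11.15 with scipy 1.17.1, pandas 2.3.3, numpy 2.4.6 and, for figures, matplotlib 3.10.9.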

Additional observations from a re-analysis of the deposited data

How the results depend on the processing

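Over 7 results and 7 alternatives, 38 of 49 values stayed within set limits. Counts of genes had to stay within 1.5 times the value reported, and other results within an interval of that value. For the median fold and the median of IP fragments this was an interval of the median across peaks. It is not the counting interval given after a fold, and it treats the peaks as independent of each other. The genes with a peak numbered 250 with spans under 2000 bases and 828 with spans under 4000 bases, against 525, since the span limit sets the number of genes examined. The genes with a peak in the 20 lists numbered 105 with spans under 2000 bases, against 196. The median fold of 6.80 was 7.11 with −log10 q of at least 5 and 7.53 with a fold of at least 4, which leaves out low values by construction. The median of 46 IP fragments was 49.5 with spans under 2000 bases. The share of summits in part 5 of 5 of the span, 28.1%, was 23.3% with a fold of at least 4 and 23.7% with spans under 2000 bases. Carriers with at least 2 peaks, 34.5%, made up 25.6% with a fold of at least 4, 25.6% with spans under 2000 bases and 39.3% with spans under 4000 bases. Of 140 list counts under the alternatives, 114 stayed within 1.5 times, and 22 of the other 26 came from the changed span limits. No interval was listed more than once, so taking 1 summit per interval could change no value. Its values are still counted among the 38 and the 114. No paired analysis was possible because each group is 1 library. No replicate could be left out for the same reason.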

Other observations

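Another 106 short autosomal genes held summits that fell in a second gene as well, so their peaks could not be given to either transcript without strand. The highest fold per gene had a median of 7.39 in these genes, against 7.61 in the 525 genes above. Nap1l5, an imprinted gene inside the larger gene Herc3, held a peak of 23.8-fold (17.1 to 32.3) from 39 fragments. Tspyl1, of the nucleosome assembly protein family, held 2, the higher at 20.2-fold (17.1 to 23.8) from 144 fragments, at a summit shared with Gm26564. Rnf113a2, a RING finger gene with its summit shared with Bbof1, held 1 of 18.7-fold (15.0 to 23.0). Fkbp2, a prolyl isomerase gene, held 3, the highest at 16.4-fold (12.7 to 20.8), at a summit shared with LOC114841036. Gm52612 had the highest value of the set, 26.7-fold (19.1 to 36.4), at a summit shared with Ptgfrn and at the genome-wide background. The genes of this paragraph were chosen after their values were seen.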
